A study of Rattus norvegicus with 10 samples.

Results

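The genes of the adrenergic receptors were followed in RNA-seq of fetal rat hearts. Their 8 members here are Adra1a, Adra1b, Adra1d, Adra2a, Adra2b, Adra2c, Adrb1 and Adrb3, taken by their gene symbol from the 18025 genes of the deposited table, and other adrenoceptor genes were not analysed here. Hearts of wild-type Sprague-Dawley rats were collected on embryonic day 19.5, called E19.5 below, and 5 libraries of the control (CON) group were compared with 5 of the hyperglycemia (HG) group. HG fetuses were carried by dams, 3 months old, that received intraperitoneal streptozotocin (STZ), which kills pancreatic beta cells, in citric acid buffer on each of 3 days, and whose non-fasting glucose was above 16 mM when measured 7 days later. CON dams received the buffer only, and all sires were normoglycemic. The comparison asks which receptor transcripts differ in the fetal heart when the mother is diabetic. A chemically induced maternal diabetes is thus the model, and exposure of the fetus to STZ and to glucose cannot be told apart. The series' design text puts the mating before the injections, whereas the study's introduction speaks of hyperglycemia before pregnancy, and the title of the data series speaks of neonatal hearts. The labels say whole heart tissue. They give neither the sex of the fetuses nor the dam or litter behind a library, so p-values measure only the spread between these libraries, which may share a dam.

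Adrenergic receptors are G protein-coupled receptors for noradrenaline, released by sympathetic nerves, and adrenaline, released by the adrenal medulla. The alpha-1 receptors act mainly through Gq and phospholipase C, which releases calcium from stores and activates protein kinase C. The alpha-2 receptors act through Gi and lower cyclic AMP, whereas the beta receptors act through Gs, adenylyl cyclase and protein kinase A to raise the rate and force of the heartbeat. The beta-1 receptor is the main one of heart muscle.

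The DNA just before the start of transcription is shown for the 3 receptor genes with a RefSeq promoter entry whose mRNA differed between the groups, and for Adrb1, the receptor gene with the highest level. RefSeq promoter entries (build GRCr8) matched 6 of the 8 genes. Each line holds the 250 bases upstream of the start, 5′ to 3′ on the gene's strand, with every CpG in capitals. Adra1b lies at chr10:28814348-28814597 on the minus strand, Adra1d at chr3:139262332-139262581 on the minus strand, Adra2b at chr3:135038231-135038480 on the plus strand and Adrb1 at chr1:265776853-265777102 on the plus strand.
Adra1b: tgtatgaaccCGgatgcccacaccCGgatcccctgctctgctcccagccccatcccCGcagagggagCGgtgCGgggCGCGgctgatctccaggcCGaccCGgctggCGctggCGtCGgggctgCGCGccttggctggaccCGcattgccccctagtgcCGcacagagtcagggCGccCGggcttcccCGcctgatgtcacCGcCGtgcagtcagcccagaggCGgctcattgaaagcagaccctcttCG
Adra1d: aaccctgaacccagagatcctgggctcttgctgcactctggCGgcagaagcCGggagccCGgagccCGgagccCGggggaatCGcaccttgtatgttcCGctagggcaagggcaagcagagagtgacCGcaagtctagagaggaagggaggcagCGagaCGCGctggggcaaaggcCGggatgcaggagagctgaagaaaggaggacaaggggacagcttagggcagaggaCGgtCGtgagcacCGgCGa
Adra2b: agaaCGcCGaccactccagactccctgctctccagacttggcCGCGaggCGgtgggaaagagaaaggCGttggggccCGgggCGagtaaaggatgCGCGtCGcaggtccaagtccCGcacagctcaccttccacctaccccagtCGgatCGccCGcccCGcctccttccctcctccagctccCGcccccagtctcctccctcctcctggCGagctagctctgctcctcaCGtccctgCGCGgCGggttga
Adrb1: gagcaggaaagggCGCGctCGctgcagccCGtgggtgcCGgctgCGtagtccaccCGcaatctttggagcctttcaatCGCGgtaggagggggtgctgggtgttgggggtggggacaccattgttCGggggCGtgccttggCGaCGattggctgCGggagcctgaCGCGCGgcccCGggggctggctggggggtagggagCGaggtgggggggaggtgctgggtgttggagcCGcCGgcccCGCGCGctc

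All 4 stretches were rich in G and C. The GC share was 70.8% in Adra1b, 64.0% in Adra1d, 68.0% in Adra2b and 72.0% in Adrb1, against a median of 51.2% over the 33469 promoters of the table. They held 23, 16, 22 and 24 CpG in the same order, and the median promoter held 5. A count at least as high was found in 12.3% of all promoters for Adra1b, 23.8% for Adra1d, 13.7% for Adra2b and 10.9% for Adrb1. Motifs were searched on both strands. The letters TATAAA, present in 12.9% of all promoters, were in none of these windows, 0 in Adra1b, Adra1d, Adra2b and Adrb1 alike. GGGCGG, present in 30.5%, occurred 2 times in Adra2b and 0 times in the other three. CCAAT (34.0% of all promoters) and TGACG (18.2%), the core of the cyclic AMP response element, each occurred 1 time in Adrb1 only. CACCC, present in 49.2%, occurred 6 times in Adrb1 and 1 time in Adra1b. No DNA or chromatin measurement was made on these hearts.

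Expression was deposited as FPKM, the number of fragments of a gene scaled to its length in kb and to library size. The reads behind these values could be recovered for all members but Adra2c, since the values of a gene are whole multiples of what 1 read is worth. The reads assigned to genes numbered 17639895 to 18240006 in the CON libraries, against 16672876 to 19109844 for HG (two-sided exact permutation test, p = 0.770, n = 5 against 5). Genes whose mean over the 10 libraries reached 0.1 FPKM were tested by limma on the log2(FPKM + 0.1) scale, and a gene was called at a Benjamini-Hochberg adjusted p under 0.05. A DEG had in addition a log2 fold change above 1 or below -1. This is the size of the study's own threshold, but taken on the log2(FPKM + 0.1) scale and with another tool, so the DEGs are not the study's. Of the 14542 genes tested, 40.1% were called, 28.4% higher and 11.8% lower in HG, and 1.94% were DEGs. Of all called genes, 70.7% were higher in HG, a split that became 47.1% after median-of-ratios scaling and 53.0% after quantile normalization.

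Transcripts of the 3 alpha-1 receptors and of 1 of the 3 alpha-2 receptors differed between the groups, and that of the main beta receptor did not pass the test. Adra1a was 8.63-fold lower in HG by mean FPKM, Adra1d 2.68-fold lower and Adra2b 1.45-fold lower, whereas Adra1b was 1.67-fold higher. Adrb1, the most abundant member, had a mean of 4.98 FPKM in CON and 5.05 FPKM in HG. Of the 8 genes, 6 passed the filter on low values and 4 were called, 1 higher and 3 lower, against the 40.1% of all genes tested. There were 2 DEGs, Adra1a and Adra1d, against 1.94% of all genes tested. Both also belong to a list of 70 genes that the study chose on these samples, so their direction there is not independent evidence. The groups did not overlap in 2 of the 8 genes, again Adra1a and Adra1d, and in 27.4% of all genes tested. The median log2 fold change of the 6 genes was -0.24, beside 0.09 over all genes tested. It includes Adra2a, which passed the filter only through its HG libraries.

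**Figure D1:**
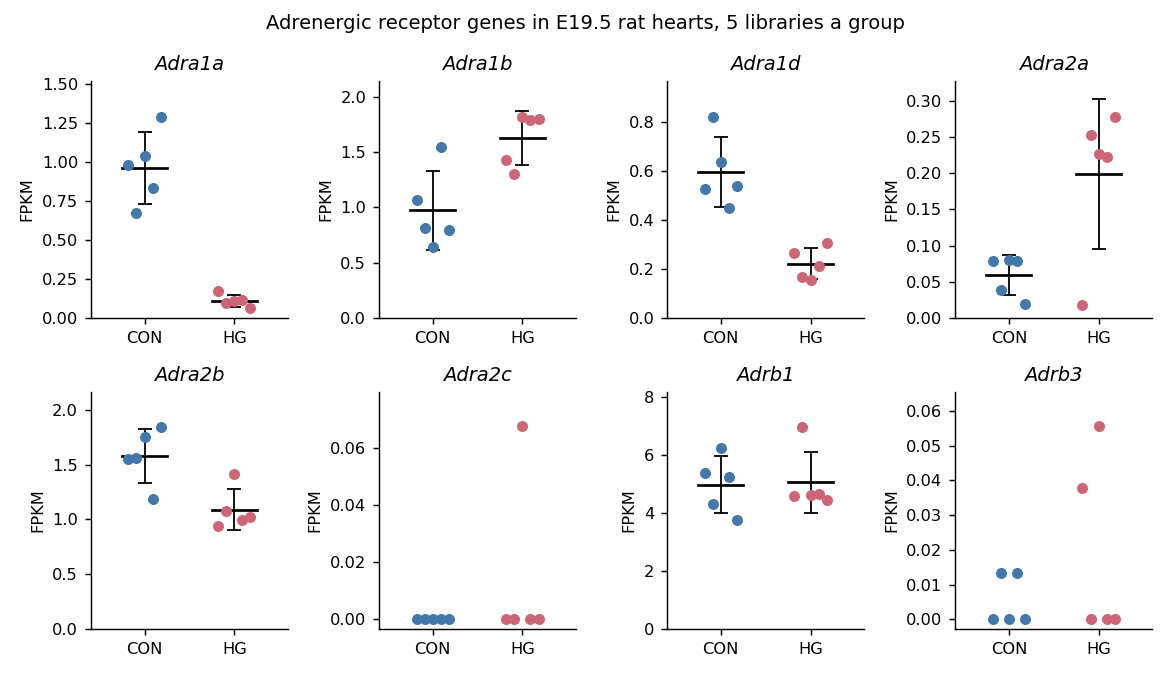
FPKM (vertical axis, a separate linear scale for each gene) of the 8 receptor genes in 5 CON (blue) and 5 HG (red) libraries, each point 1 library, with the group mean and SD as a bar and whiskers except for Adra2c and Adrb3, which lay at or near 0. Adra1a and Adra1d separate the groups completely, Adra1b overlaps through 1 CON library, and for Adrb1 all HG libraries but 1 high one lie inside the CON range.

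Among the alpha-1 receptors, Adra1a (NCBI Gene 29412), a Gq-coupled receptor of heart muscle cells and of smooth muscle, had the largest change. Its FPKM in CON was 0.979, 0.672, 1.04, 0.833 and 1.29 in replicates 1 to 5, with a mean of 0.963 ± 0.232 (SD, n = 5). In HG the values were 0.173, 0.0965, 0.112, 0.114 and 0.0628, with a mean of 0.112 ± 0.0399 (SD, n = 5). Every HG library thus lay far below every CON library. The reads behind these values numbered 152 to 283 in a CON library and 13 to 41 in an HG library. The log2 fold change was -2.32 ± 0.194 (SE; 95% confidence interval -2.74 to -1.90; limma adjusted p = 4.98e-06), and only 15 of the 14542 genes tested had a lower one. The added 0.1 FPKM compresses low values, and on recovered reads with limma voom the log2 fold change was -3.10.

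Adra1d (NCBI Gene 29413), an alpha-1 receptor known mainly from vascular smooth muscle, moved in the same direction. CON replicates 1 to 5 held 0.526, 0.821, 0.637, 0.449 and 0.539 FPKM, with a mean of 0.594 ± 0.143 (SD, n = 5). HG replicates 1 to 5 held 0.267, 0.167, 0.157, 0.212 and 0.306 FPKM, with a mean of 0.222 ± 0.0643 (SD, n = 5). The highest HG library stayed below the lowest CON library. The log2 fold change was -1.11 ± 0.190 (SE; 95% confidence interval -1.52 to -0.70; limma adjusted p = 0.000711), and 133 genes tested had a lower one. Each HG library held 8 to 15 reads of this gene and each CON library 24 to 44, so counting error alone is large for a single library.

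Adra1b (NCBI Gene 24173), the third alpha-1 receptor and a receptor of heart muscle and liver cells, moved the opposite way. Its FPKM in CON was 1.07, 0.814, 0.647, 1.55 and 0.796 in replicates 1 to 5 (mean 0.975 ± 0.355, SD, n = 5). In HG it was 1.43, 1.30, 1.82, 1.79 and 1.80 (mean 1.63 ± 0.243, SD, n = 5). Only CON replicate 4 reached into the HG range, and the 4 other CON libraries lay below all HG libraries. The log2 fold change was 0.73 ± 0.194 (SE; 95% confidence interval 0.31 to 1.15; limma adjusted p = 0.00995), and 2.81% of the genes tested had a higher one. It was 0.90 without CON replicate 4 (limma adjusted p = 0.00107). Over all fits with 1 library left out it ranged from 0.61 to 0.90, with a limma adjusted p of at most 0.0262.

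The makeup of the alpha-1 transcripts differed accordingly. The 3 genes together summed to 2.53 ± 0.217 FPKM in the CON libraries, against 1.96 ± 0.248 FPKM for HG (SD over 5 libraries), with a range of 2.31 to 2.83 in CON and of 1.57 to 2.17 in HG. Of this sum, Adra1a held 38.1 ± 8.98% in the CON libraries (29.1 to 49.1%) and 5.80 ± 2.28% in the HG libraries (2.89 to 9.23%). Adra1b held 37.9 ± 10.8% in CON (27.8 to 54.7%) and 82.9 ± 3.95% in HG (76.5 to 87.2%). The share of Adra1d went from 24.0 ± 7.70% to 11.3 ± 2.89%. None of the 3 shares overlapped between the groups. By FPKM, the control hearts thus held near-equal levels of Adra1a and Adra1b mRNA. In the HG hearts Adra1b was by far the main alpha-1 transcript on this scale. These shares depend on the lengths that the reads were divided by, 12.4 kb for Adra1a and 2.63 kb for Adra1b. In reads, the CON libraries together held 1071 of Adra1a and 231 of Adra1b, and the HG libraries 125 and 380. Shares within a sum are not independent of each other, and no test was made on them.

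**Figure D2:**
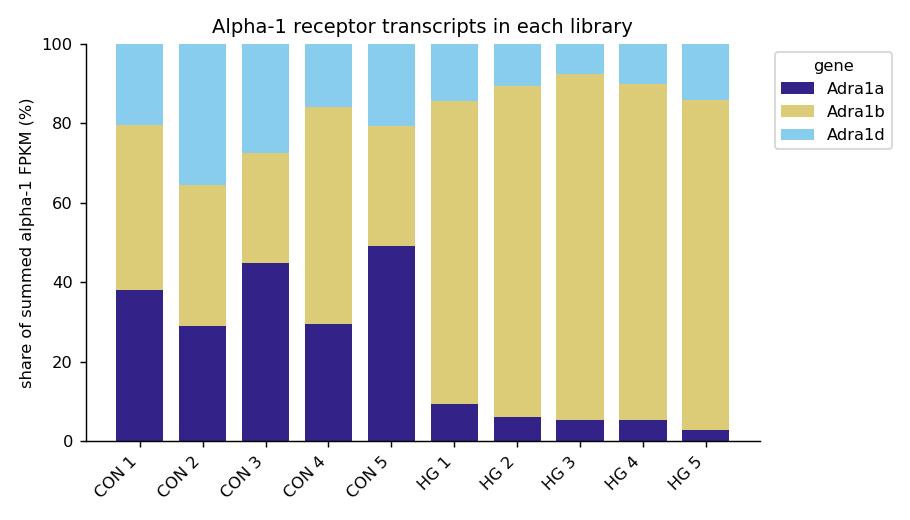
Share of Adra1a, Adra1b and Adra1d in the summed alpha-1 FPKM (vertical axis, percent) in each of the 10 libraries (horizontal axis), as stacked bars. Adra1b takes 76.5 to 87.2% in every HG library and 27.8 to 54.7% in the CON libraries, where Adra1a holds 29.1 to 49.1%.

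Among the alpha-2 receptors, Adra2b (NCBI Gene 24174), a Gi-coupled receptor known from blood vessels, was the main transcript in both groups. CON replicates 1 to 5 held 1.55, 1.56, 1.75, 1.19 and 1.84 FPKM (mean 1.58 ± 0.249, SD, n = 5). HG replicates 1 to 5 held 0.943, 1.08, 1.41, 0.993 and 1.02 FPKM (mean 1.09 ± 0.186, SD, n = 5). The groups overlapped, since HG replicate 3 was above CON replicate 4, and the remaining libraries were apart. The log2 fold change was -0.50 ± 0.136 (SE; 95% confidence interval -0.79 to -0.20; limma adjusted p = 0.0117), and 5.10% of the genes tested had a lower one. Leaving out HG replicate 3 gave -0.59 (limma adjusted p = 0.00486). Over all fits with 1 library left out it ranged from -0.59 to -0.44, with a limma adjusted p of at most 0.0311.

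Adra2a (NCBI Gene 25083), a Gi-coupled receptor that also sits on sympathetic nerve endings and limits noradrenaline release, was close to the limit of detection in the control hearts. Its FPKM in CON was 0.0788, 0.0391, 0.0809, 0.0784 and 0.0202 in replicates 1 to 5, which rests on 1 to 4 reads a library. In HG it was 0.0187, 0.252, 0.226, 0.222 and 0.278, which rests on 1 read in replicate 1 and on 11 to 13 reads in the others. HG replicates 2 to 5 lay above all CON libraries, and HG replicate 1 lay below all of them. The log2 fold change of 0.82 ± 0.317 (SE; 95% confidence interval 0.13 to 1.51) did not pass the test (limma adjusted p = 0.0562). With a mean of 0.0595 FPKM in CON and 0.200 FPKM in HG, it reached the filter only through the HG libraries. Without HG replicate 1, the HG library that went the other way, the log2 fold change was 1.13 and passed (limma adjusted p = 0.00217). Since that fit drops the HG library that went against a rise, it gives no support for one. Without any other single library the log2 fold change did not pass (limma adjusted p from 0.0706 to 0.124). With a pseudocount of 1 it was 0.17 and passed (limma adjusted p = 0.0421). On recovered reads with limma voom it did not pass (adjusted p = 0.141).

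Adra2c (NCBI Gene 24175), another receptor of sympathetic nerve endings, was listed at 0 in all libraries but HG replicate 3, which held 0.0676 FPKM (two-sided exact permutation test, p = 1.00). With a value in only 1 library, its number of reads could not be recovered, and no limit of detection can be given.

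Among the beta receptors, Adrb1 (NCBI Gene 24925), the Gs-coupled receptor through which noradrenaline speeds and strengthens the heartbeat, had the highest FPKM of the 8 genes in every library. CON replicates 1 to 5 held 5.36, 4.30, 6.23, 5.25 and 3.75 FPKM (mean 4.98 ± 0.968, SD, n = 5). HG replicates 1 to 5 held 4.59, 6.95, 4.61, 4.65 and 4.45 FPKM (mean 5.05 ± 1.06, SD, n = 5). Apart from the high HG replicate 2, the HG libraries lay inside the range of the CON libraries. The log2 fold change was 0.02 ± 0.148 (SE; limma adjusted p = 0.928), and its sign turned to -0.07 with median-of-ratios scaling, to -0.08 with quantile normalization and to -0.10 without HG replicate 2. The 95% confidence interval of -0.30 to 0.34 spans a fold of 0.812 to 1.27 on the log2(FPKM + 0.1) scale. A difference within these bounds remains compatible with the data. Adrb1 held 54.0 ± 5.46% of the summed FPKM of all 8 genes in the CON libraries, against 60.2 ± 6.37% for HG (SD over 5 libraries), with overlapping ranges.

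Adrb3 (NCBI Gene 25645), a beta receptor best known from fat cells, was at the limit of detection. It had 1 read in CON replicates 2 and 4 and 0 in the other three, and 3 reads in HG replicate 1, 4 in HG replicate 3 and 0 in the other three. By FPKM these were 0.0133 in both CON libraries, 0.0379 in HG replicate 1 and 0.0557 in HG replicate 3 (two-sided exact permutation test, p = 0.444). A count of 0 allows up to 3 reads, which is 0.0395 to 0.0435 FPKM in these libraries and covers counting error only.

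**Figure D3:**
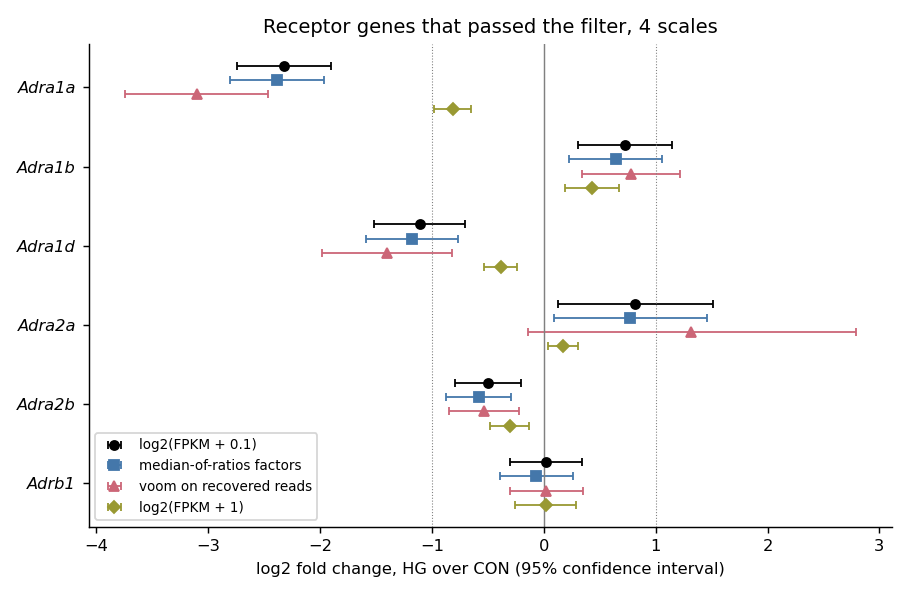
Log2 fold change of HG over CON (horizontal axis) with its 95% confidence interval for the 6 receptor genes that passed the filter, on 4 scales: log2(FPKM + 0.1), the same after median-of-ratios scaling, limma voom on recovered reads, and log2(FPKM + 1). Adra1a, Adra1d and Adra2b lie left of 0 and Adra1b right of 0 on every scale, the intervals of Adrb1 include 0 on each with a sign that turns to -0.07 under median-of-ratios scaling, and that of Adra2a includes 0 on the voom scale.

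The order of the levels changed below the top. By mean FPKM, which is per length, the order in CON was Adrb1, Adra2b, Adra1b, Adra1a, Adra1d, Adra2a, Adrb3 and Adra2c. In HG it was Adrb1, Adra1b, Adra2b, Adra1d, Adra2a, Adra1a, Adrb3 and Adra2c. Adra1a and Adra1b were not separated in CON, where Adra1a was the higher in 2 of 5 libraries, but Adra1b was the higher in 5 of 5 HG libraries. Adra2b was above Adra1b in 4 of 5 CON and in 0 of 5 HG libraries. Adra1d was above Adra1a in 1 of 5 CON and in 5 of 5 HG libraries. Neighbours whose ranges overlapped in CON were Adra2b and Adra1b, Adra1b and Adra1a, Adra1a and Adra1d, and Adrb3 and Adra2c. In HG they were Adra1b and Adra2b, Adra1d and Adra2a, Adra2a and Adra1a, and Adrb3 and Adra2c. Length matters for this order. The FPKM and reads of Adra1a imply that its reads were divided by a length of 12.4 kb, and those of Adrb1 by 1.40 kb. The 1071 CON reads of Adra1a therefore outnumbered the 627 of Adrb1 although its FPKM was lower. A length that is the same in all libraries does not change the ratio of mean FPKM between the groups. The length does enter the fitted log2 fold change, since an added 0.1 FPKM weighs more on a lower FPKM.

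Cell types of the heart were followed through marker lists, since in bulk tissue fewer cells of a type and less RNA per cell cannot be told apart. Heart muscle markers were abundant in all libraries, and the cardiac actin Actc1 averaged 10911 FPKM for CON and 9821 FPKM for HG. The sum of 8 cardiomyocyte markers was 0.858 times as high in HG (23590.4 to 24982 FPKM in CON, 19317 to 22198 FPKM in HG; exact permutation test, p = 0.00794, adjusted p = 0.0185 over 14 values per library), and 6 of the 8 were called lower. The p of 0.00794 is the smallest that 5 against 5 libraries allow. The sum of 10 smooth muscle and pericyte markers was 1.25 times as high in HG (834 to 951 FPKM in CON, 1035 to 1296 FPKM in HG; exact permutation p = 0.00794, adjusted p = 0.0185), with 3 called higher and 3 lower. Most of the smooth muscle and pericyte sum was Acta2 (538 FPKM in CON, 673 FPKM in HG), while the pericyte marker Rgs5 was called lower. The shifts of both sums moved with the groups as Adra1a, Adra1d, Adra2b and Adra1b did, and their part in the receptor results was not tested. Ventricular markers summed to 6499 to 7456 FPKM in CON against 4828 to 5926 FPKM in HG, 0.763 times as much, with 2 of 5 called higher and 1 lower, and most of the sum was Myl2 (6739 to 5099.7 FPKM). Atrial markers summed to 2796 to 4104 against 3777 to 5292 FPKM, 1.34 times as much, with 3 of 6 called higher. Within this sum, Nppa went from 1733 to 2855 FPKM, while Myl7 had 789 and 759 FPKM (limma adjusted p = 0.801) and Myl4 833 and 873 FPKM (limma adjusted p = 0.582). Fibroblast markers summed to 0.896 times the CON level (1552 to 1801 against 1424 to 1628 FPKM, 2 of 8 called higher and 4 lower) and endothelial markers to 1.05 times (273 to 295 against 281 to 308 FPKM), the latter not passing (exact permutation p = 0.0635). Fat cell markers summed to 0.629 times the CON level (175 to 203 against 99.9 to 134 FPKM), a sum carried by Fabp4 and Cidea, with Adipoq averaging 0.0147 FPKM for CON and 0 for HG. Red cell markers summed to 0.663 times (60.6 to 110.5 against 40.7 to 58.3 FPKM).

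Liver markers summed to 80.4 FPKM in CON replicate 3, to 3.12 to 7.73 FPKM in the 4 other CON libraries and to 0.852 to 2.40 FPKM in HG. Without CON replicate 3 the log2 fold change of Adra1b was 0.61 (limma adjusted p = 0.0242), and the part of liver RNA in the receptor results was not tested. The 3 lung epithelium markers in the table summed to at most 0.148 FPKM in any library.

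Some alpha-2 receptors sit on the endings of sympathetic nerve cells, whose markers were followed too. Of the 12 sympathetic neuron and chromaffin markers, 4 passed the filter, 1 of them called higher and 2 lower. After median-of-ratios scaling 0 were called higher and 2 lower. Tyrosine hydroxylase (Th), which starts the synthesis of noradrenaline, had a mean of 0.0416 FPKM in CON and 0.0413 FPKM in HG. Phox2a averaged 0.0139 and 0.0215 FPKM, Chrna3 0.00731 and 0 FPKM, and Chga 0 and 0.00637 FPKM. The genes called were Dbh (1.59 to 1.06 FPKM, adjusted p = 0.00403) and the filament gene Prph (1.74 to 1.26 FPKM, adjusted p = 0.0204), which fell, and Stmn2 (0.453 to 0.741 FPKM, adjusted p = 0.0403), which rose. The most abundant gene of the list, Npy, had 3.41 and 4.03 FPKM (limma adjusted p = 0.420). The list summed to 0.987 times the CON level in HG (exact permutation p = 0.905), and that of the Schwann cells, the glia of these nerves, to 0.963 times (exact permutation p = 0.722), with 2 of its 6 genes tested and 0 called by limma. How much of Adra2a or Adra2c came from nerve endings was not tested.

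Genes that make, store and remove the ligands were called in both directions. Of 12 listed, 8 were tested, with 2 higher, 3 lower and a median log2 fold change of -0.01. Slc18a1, which loads monoamines into the vesicles of chromaffin cells, fell from 1.30 ± 0.182 to 0.319 ± 0.185 FPKM (SD over 5 libraries, log2 fold change -1.87, limma adjusted p = 0.000368). It is also in the study's list of 70 genes. Its neuronal counterpart Slc18a2 rose from 0.612 ± 0.148 to 1.19 ± 0.216 FPKM (0.87, adjusted p = 0.00150). Dbh, which turns dopamine into noradrenaline, fell from 1.59 ± 0.176 to 1.06 ± 0.173 FPKM (-0.55, adjusted p = 0.00403). The groups did not overlap in any of these 3 genes. Ddc, which makes dopamine and is abundant here, had 24.9 and 28.7 FPKM (adjusted p = 0.0516). Th was near 0 in both groups, as given above.

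The alpha subunits of G proteins carry the signal from the receptor. Of 11 tested, 3 were called higher and 2 lower, 1 and 2 after median-of-ratios scaling. Gnas, the stimulatory subunit of the beta receptors, had 139 FPKM in CON and 142 FPKM in HG (limma adjusted p = 0.501), and Gnai2, an inhibitory subunit used by the alpha-2 receptors, 239.8 and 245 FPKM (adjusted p = 0.667). Gnaq, which alpha-1 receptors use, rose from 11.7 ± 0.556 to 14.0 ± 0.595 FPKM without overlap (log2 fold change 0.26, adjusted p = 0.00116). Gna12 fell from 60.0 to 49.5 FPKM (-0.28, adjusted p = 0.00418) and Gnao1 from 33.0 to 28.8 FPKM (-0.20, adjusted p = 0.0190).

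Receptor kinases, arrestins and RGS proteins end the signal of an active receptor. Of 12 such genes, 6 were called higher and 1 lower, which became 3 higher and 1 lower after median-of-ratios scaling, and the median log2 fold change was 0.19. Rgs2, which shortens Gq signalling, rose from 26.8 ± 7.48 to 46.0 ± 8.70 FPKM (SD over 5 libraries, log2 fold change 0.81, limma adjusted p = 0.00450). The arrestin Arrb2 rose from 3.65 to 4.93 FPKM (0.42, adjusted p = 0.00105) and the receptor kinase Grk3 from 1.44 to 1.87 FPKM (0.37, adjusted p = 0.0470). Rgs5, which is also on the pericyte list, fell from 89.7 to 72.2 FPKM (-0.31, adjusted p = 0.00456).

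In the cyclic AMP arm, 2 genes were called higher and 5 lower of 17 tested, and 1 higher and 6 lower after median-of-ratios scaling. The adenylyl cyclase Adcy5, a main cardiac form, fell from 18.6 ± 1.26 to 11.6 ± 1.08 FPKM (log2 fold change -0.67, limma adjusted p = 2.17e-05). Adcy1, which is in the study's list too, fell from 3.62 ± 0.501 to 1.79 ± 0.456 FPKM (-0.99, adjusted p = 0.000260). Prkar1b, a regulatory subunit of protein kinase A, rose from 0.801 ± 0.236 to 1.62 ± 0.259 FPKM (0.96, adjusted p = 0.00110). The groups did not overlap in any of these 3 genes. The catalytic subunit Prkaca had 128 FPKM for CON and 124 for HG (adjusted p = 0.504), and the abundant regulatory subunit Prkar1a fell from 190.0 to 173 FPKM (-0.13, adjusted p = 0.00980).

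Targets of protein kinase A that set the strength and speed of the beat were listed together with the calcium pump Atp2a2. Of these 10 genes, 7 were called lower and 1 higher, with a median log2 fold change of -0.31. Among all genes tested, 11.8% were called lower. After median-of-ratios scaling, 7 of the list were called lower and 0 higher. Ryr2, the calcium release channel, fell from 50.3 ± 6.11 to 32.5 ± 2.40 FPKM (-0.62, limma adjusted p = 7.94e-05). Troponin I (Tnni3) fell from 1261 ± 32.1 to 871 ± 90.8 FPKM (-0.54, adjusted p = 4.89e-05) and phospholamban (Pln) from 564 ± 24.8 to 405 ± 19.4 FPKM (-0.48, adjusted p = 8.53e-06). Atp2a2, the calcium pump that phospholamban restrains, fell from 855 to 659 FPKM (-0.38, adjusted p = 1.94e-05). These are heart muscle genes. Of the 8 cardiomyocyte markers, 6 were called lower and 0 higher, with a median log2 fold change of -0.28. For the cardiomyocyte marker Tnnt2 the log2 fold change was -0.29 (limma adjusted p = 0.000560).

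In the phospholipase C arm of the alpha-1 receptors, 3 genes were called higher and 2 lower of 15 tested, 1 and 2 after median-of-ratios scaling. Prkcb, a protein kinase C isoform, rose from 0.476 ± 0.0223 to 0.762 ± 0.0970 FPKM (log2 fold change 0.58, limma adjusted p = 0.00267). Itpr3, a calcium release channel opened by inositol trisphosphate, fell from 1.65 to 1.20 FPKM (-0.43, adjusted p = 0.00396), and the phospholipase Plcb4 from 4.52 to 3.64 FPKM (-0.31, adjusted p = 0.00633). The most abundant kinases of the list, Prkca (12.5 FPKM in CON as in HG, adjusted p = 0.977) and Prkcd (41.0 and 43.6 FPKM, adjusted p = 0.207), did not pass the test. Of the 6 lists, the share of tested genes called lay nearest to the 40.1% of all genes in the cyclic AMP arm (7 of 17). It was highest in the list of protein kinase A targets with Atp2a2 (8 of 10). The cardiomyocyte markers, which are not among these lists, had 6 of 8 called.

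**Figure D4:**
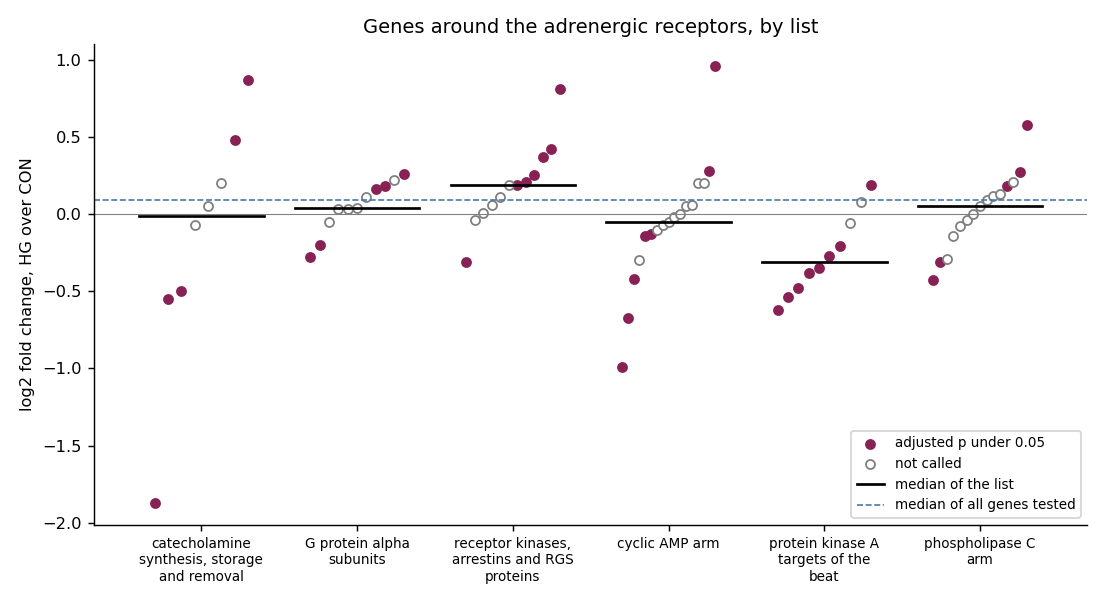
Log2 fold change of HG over CON (vertical axis) for each tested gene of 6 lists around the receptors (horizontal axis), filled where the limma adjusted p was under 0.05, with the median of each list as a bar and that of all genes tested (0.09) as a dashed line. The targets of protein kinase A, listed with Atp2a2, lie lowest with a median of -0.31, and the receptor kinases, arrestins and RGS proteins highest with 0.19.

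The genes whose levels ran most like those of each receptor over the 10 libraries were listed by Pearson's r of log2(FPKM + 0.1), as a description without a test, since the difference between the groups enters every r. Adra1a ran with Eno3, the muscle enolase (r = 0.987), Lpl, lipoprotein lipase (r = 0.987), and Sgca, alpha-sarcoglycan of the muscle membrane (r = 0.986). Adra1d ran with Larp1b (r = 0.972), Ndufa6 of respiratory complex I (r = 0.961) and Coa5, a cytochrome c oxidase assembly factor (r = 0.961). Adra1b ran with Ezh2, a histone methyltransferase (r = 0.963), and Ube2t, a ubiquitin-conjugating enzyme (r = 0.942). Adra2b ran with Tmem116 (r = 0.959) and Mrps25, a mitochondrial ribosomal protein (r = 0.938). Adra2a ran with Pabpc4l (r = 0.951) and Ift46 (r = 0.946). Adrb1, whose groups did not separate, ran with Vps18 (r = 0.944), Txndc12 (r = 0.897) and LOC308990 (r = 0.868).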

How the data were processed

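RNA of E19.5 rat hearts was measured in 5 CON and 5 HG stranded mRNA libraries. The authors deposited FPKM per gene, read numbers divided by gene length and library size. The submitters' processing notes name fastp, HISAT2, HTSeq, R 3.2.0 and the build mRatBN7.2, and the annotation and the strand setting of the counting are not given in the sources used here. The methods speak of pooled RNA and a figure legend of isolated cardiomyocytes, whereas the deposited FPKM differ between libraries and the labels say heart. All sample columns were used (0 unused), and the GO and KEGG columns were not.

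Samples were grouped by their labels. Genes whose mean reached 0.1 FPKM entered a limma 3.58.1 fit (R 4.3.3, trend, no covariate) of log2(FPKM + 0.1), since the tool named in the study's methods takes counts. For single values, exact permutation tests were two-sided. The FPKM of 100.0% of genes above 0 were whole multiples of 1 read (tolerance 0.05 reads), from which reads were recovered, a step tested on simulated data. A gene above 0 in only 1 library, such as Adra2c, gives no read number. Lengths in kb follow from reads and FPKM, with the summed reads as library size. The limma fit was tested on simulated data too. Tables were made with Python 3.11.15, numpy 2.4.6, pandas 2.3.3, scipy 1.17.1 and matplotlib 3.10.9.

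Each result was recomputed with pseudocounts of 1 and 0.01, without a filter, with a mean of at least 1 FPKM, median-of-ratios factors, quantile normalization, no trend, a replicate block, a Y chromosome covariate, voom on recovered reads (5960 genes called), and each library left out. Named are the 8 receptor genes, in each of 6 pathway lists the up to 3 called genes with the largest change and the 2 most abundant, 2 abundant genes of each of 12 marker lists where a result turns on them, and the 3 genes most like each receptor. Th, Stmn2, Phox2a, Chrna3, Chga, Myl7 and Adipoq were named after their values were seen. The members and lists were chosen with earlier results of these data known. Some named items are not reported here.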

Additional observations from a re-analysis of the deposited data

Results flagged for a closer look

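Libraries that stood far from the rest of their group by Dixon's test at the 95% level were sought in 117 groups of 60 genes, where chance would give about 1 in 20, or 5.85. There were 13. Among the receptor genes, Adra2a was at 0.0187 FPKM in HG replicate 1 against 0.222 to 0.278 in the others, Adra2b at 1.41 FPKM in HG replicate 3 against 0.943 to 1.08, Adra2c at 0.0676 FPKM in HG replicate 3 against 0, and Adrb1 at 6.95 FPKM in HG replicate 2 against 4.45 to 4.65. The same HG replicate 2 stood apart in Ddc (23.9 FPKM against 29.5 to 30.6) and Rgs2 (61.4 FPKM against 40.3 to 44.1), and held the only HG value above 0 of the lung gene Sftpc (0.0693 FPKM). Adcy1 was at 2.59 FPKM in HG replicate 5 against 1.45 to 1.69, the Schwann cell gene Erbb3 at 0.182 FPKM in HG replicate 4 against 0.306 to 0.353, and the ventricular gene Irx4 at 50.9 FPKM in HG replicate 1 against 56.1 to 57.9. In CON replicate 3 the liver genes Alb and Afp were at 34.9 and 24.3 FPKM, against at most 2.93 and 1.35 in the other CON libraries. The lung gene Scgb1a1 was at 0.118 FPKM in CON replicate 2 and at 0 in the others.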

How the results depend on the processing

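Adra1a, Adra1d and Adra2b stayed lower and Adra1b higher, past the threshold, under every alternative that tested them. Their log2 fold changes ranged from -3.10 to -0.81 for Adra1a, -1.40 to -0.38 for Adra1d, -0.59 to -0.30 for Adra2b and 0.43 to 0.90 for Adra1b. Adra2a ranged from 0.17 to 1.36 (adjusted p from 0.00217 to 0.141). The sign of Adrb1 turned to -0.07 with median-of-ratios factors, to -0.08 with quantile normalization, and to -0.03, -0.07 and -0.10 without CON replicate 2, CON replicate 5 and HG replicate 2 (leave-one-out range -0.10 to 0.11). With a mean of at least 1 FPKM required, 2 receptor genes were called and 0 were DEGs, since Adra1a, Adra1d and Adra2a were no longer tested, and 134 genes in all were DEGs. A pseudocount of 1, which compresses low values, left 0 receptor DEGs and 64 in all, and voom gave 426. Without one library at a time, 5059 to 5620 genes were called and 276 to 305 were DEGs. Of the receptor genes, 4 to 5 were called and 2 to 3 were DEGs, the higher counts only without HG replicate 1, through Adra2a. Adra2c differed by 0 to 0.0169 FPKM in the same way, with 0 without HG replicate 3. Same-numbered libraries correlated between -0.126 and 0.108, so the numbers were not taken as pairs. With the replicate block, 5096 genes and 4 receptor genes were called. Depth limits Adra2a and Adrb3, with at most 13 and 4 reads in a library, Adra2c, and the HG level of Adra1d (8 to 15 reads) and Adra1a (13 to 41 reads).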
